A study of Homo sapiens with 8 samples.

Results

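The SLC25A genes encode the mitochondrial carrier family, and their messenger RNA was measured in DLD-1 cells, a human colorectal cancer cell line, with and without added miR-143. The genes were chosen by name: every current symbol that starts with SLC25A, with pseudogenes and antisense genes left out, read from the probe set of highest mean that was annotated to that gene alone. Of the 48 such genes in RefSeq, 45 were measured among 19752 genes in all, and the rest were not analysed here. Cells were transfected by lipofection with 50 nM of a miR-143 duplex (miR-143, 4 arrays) or mock transfected (mock, 4 arrays), and total RNA was taken from all cultures after 24 h. The methods call the 4 arrays of a group biological replicates. No array of a control duplex was used here, so an effect of adding any duplex and an effect of the miR-143 sequence cannot be told apart.

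Carriers of this family sit mostly in the inner mitochondrial membrane, which is closed to charged metabolites, and exchange or import nucleotides, amino acids, keto acids, phosphate, cofactors and iron between cytosol and matrix. They share a fold built of repeated modules, are made in the cytosol and are inserted through the TOM and TIM complexes. In gut epithelium and in tumours derived from it they link glycolysis, the urea cycle enzymes, glutamine use and oxidative phosphorylation. A microRNA loaded into an Argonaute protein pairs through its seed, bases 2 to 8 from the 5′ end, mostly with 3′ UTRs, and lowers the level or the translation of the paired messenger RNA.

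Both strands of miR-143 are shown because the methods describe the reagent as a mimic of the mature duplex. The sequences of the reagent itself are not given, so its second strand may differ from the 5p strand shown. The sequences are from RefSeq (GRCh38.p14), 5′ to 3′, with the seed in capitals. The 3p strand of 21 nt lies at chr5:149428978-149428998 and the 5p strand of 22 nt at chr5:149428944-149428965, both on the plus strand, and their seeds differ. Sites for them in the carrier messages were not counted, since UTR sequence was not used here.
hsa-miR-143-3p: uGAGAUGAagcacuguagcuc
hsa-miR-143-5p: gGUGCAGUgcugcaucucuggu

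All levels are log2 values after RMA, the deposited normalization, so a difference of 1 is a doubling, and levels of different probe sets do not rank amounts of RNA. The array medians lay between 7.15 and 7.24 over all probe sets. Replicate 4 stood apart in both groups, at 25.66 and 26.68 on the first principal component (66.9% of the variance) against −18.82 to −4.25 for the other 6 arrays. Of the 12 colorectal epithelium markers examined, 9 lay above the median gene level of 7.56, used here only as a rough mark of signal, among them EPCAM at 13.60 and CDH1 at 12.85, and GPA33, CEACAM5 and LGALS4 lay below it. Of the markers of other cells, 1 of 5 for fibroblasts (COL1A1, 8.14), 0 of 3 for leukocytes and 1 of 3 for endothelium (PECAM1, 7.61) lay above it. Around the group means, same-numbered arrays correlated across genes at 0.81 for replicate 4 and at 0.11 to 0.58 for replicates 1 to 3. Differently numbered arrays of replicates 1 to 3 reached 0.54, so only replicate 4 clearly deviated by number. Calls are given without and with the replicate number as a block. Fold changes are the same in both fits, and intervals are from the fit without it. In bulk RNA, fewer cells of a kind and less RNA per cell cannot be told apart.

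One carrier of the 45, the ornithine carrier SLC25A15, was lower after miR-143, and no carrier was called higher. Without the block limma called 0 of 45 carriers lower and 0 higher at an adjusted p under 0.05, against 0.0% of all genes lower and 0.0% higher. With the block it called 1 carrier lower, SLC25A15, and 0 higher, against 0.623% and 0.167% of all genes. At an unadjusted p under 0.05, limma without the block counted 2 of 45 carriers lower (SLC25A15 and SLC25A44) against 1.7% of all genes, and 0 higher against 0.714%. With the block the same limit counted 6 lower, namely SLC25A15, SLC25A44, SLC25A14, SLC25A37, SLC25A32 and SLC25A16, against 6.92%, and 0 higher against 2.64%. In 1 of 45 carriers all miR-143 arrays lay below all mock arrays, against 1.24% of all genes, and in 0 above, against 0.719%.

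The family as a whole stayed close to the centre of all genes. The median log2 fold change of the 45 carriers was −0.01, as it was over all genes. Of the 45, 12 lay below the median gene level of 7.56, where a change may not be visible, and they enter the counts below. With dim genes left out the median of the carriers was −0.04, and that over all genes was not taken in this setting. The change was negative in 26 carriers and positive in 19, and it was negative in 55.6% of all genes. It ran from −0.61 for SLC25A15, then −0.24 for SLC25A44, to 0.10 for SLC25A42, and 40 of 45 carriers lay within 0.15 of no change. The 95% intervals without the block had a median half-width of 0.19 (range 0.11 to 0.39), and that of every carrier but SLC25A15 stayed within 0.5 of no change, while those of 23 stayed within 0.25.

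**Figure D1:**
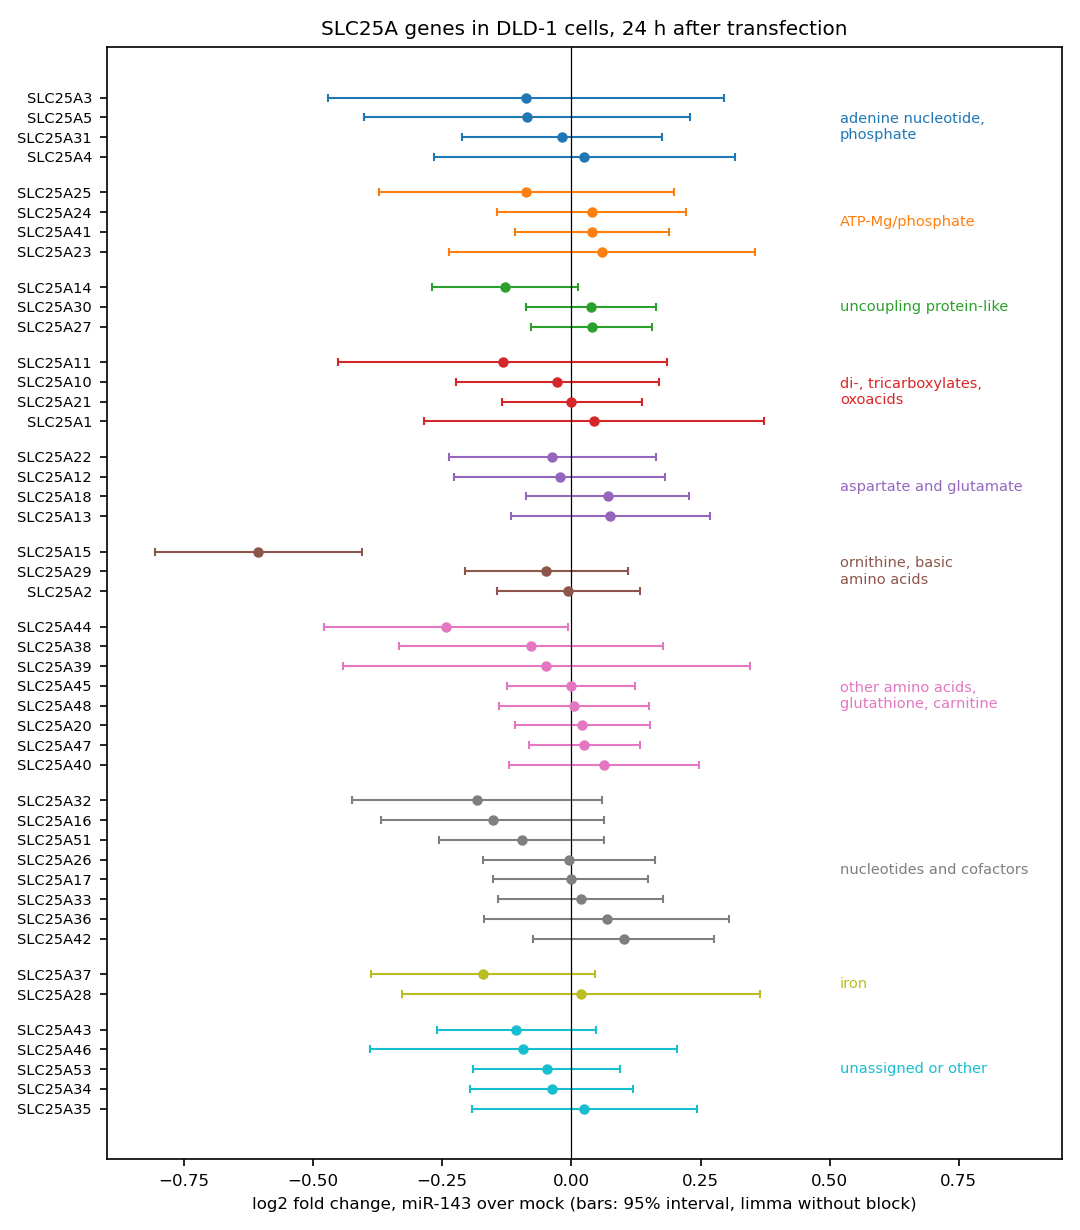
Change in log2 level between mock and miR-143 arrays (x axis) for each of the 45 SLC25A genes (y axis). Genes are grouped and coloured by assigned substrate, by likeness to uncoupling proteins, or as unassigned or other. Points are limma estimates without the block and bars their 95% intervals. SLC25A15 stands at −0.61, SLC25A44 at −0.24 is the other gene whose interval leaves out 0, and the other 43 intervals include 0.

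SLC25A15 exchanges cytosolic ornithine for matrix citrulline, the step that joins the matrix and cytosolic reactions of the urea cycle, and its loss in people causes a syndrome with raised ammonia and ornithine. It is on the study's list of putative miR-143 targets, which was drawn up on these same arrays, so its direction here is not independent evidence. On its probe set of higher mean the miR-143 arrays read 9.20, 9.30, 9.19 and 9.40 and the mock arrays 9.85, 9.84, 9.72 and 10.11 for replicates 1 to 4. The groups did not overlap, and the lowest mock array was above the highest miR-143 array. The means were 9.27 ± 0.10 and 9.88 ± 0.17 (SD, n = 4 each), a log2 fold change of −0.61 (SE 0.09, 95% interval −0.81 to −0.41), a change of −34.3%. The adjusted p from limma was 0.164 without the block and 0.000427 with it. The exact two-sided permutation test of the 8 arrays gave p = 0.0286, the smallest that 70 groupings allow and the one any gene without overlap reaches. Among all 19752 genes, 6 had a lower log2 fold change, and SLC25A15 was number 7 by p in both fits.

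The probe set of lower mean, whose name ends in _s_at, gave the same direction at a smaller size. Its miR-143 arrays read 7.43, 7.39, 7.37 and 7.35 and its mock arrays 7.65, 7.70, 7.63 and 7.93. Again no miR-143 array reached the mock range, and mock replicate 4 was the highest of the 8. The log2 fold change was −0.35 (SE 0.07, 95% interval −0.50 to −0.19), a change of −21.3%, with a limma adjusted p over all 41091 probe sets of 0.517 without the block and 0.0379 with it. The same-numbered differences were −0.65, −0.55, −0.52 and −0.71 on the first probe set and −0.23, −0.31, −0.26 and −0.58 on the second. All of them were negative, and replicate 4 gave the lowest on both. That ending marks a probe set that may also match other transcripts, and whether other carrier messages bind it was not tested.

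**Figure D2:**
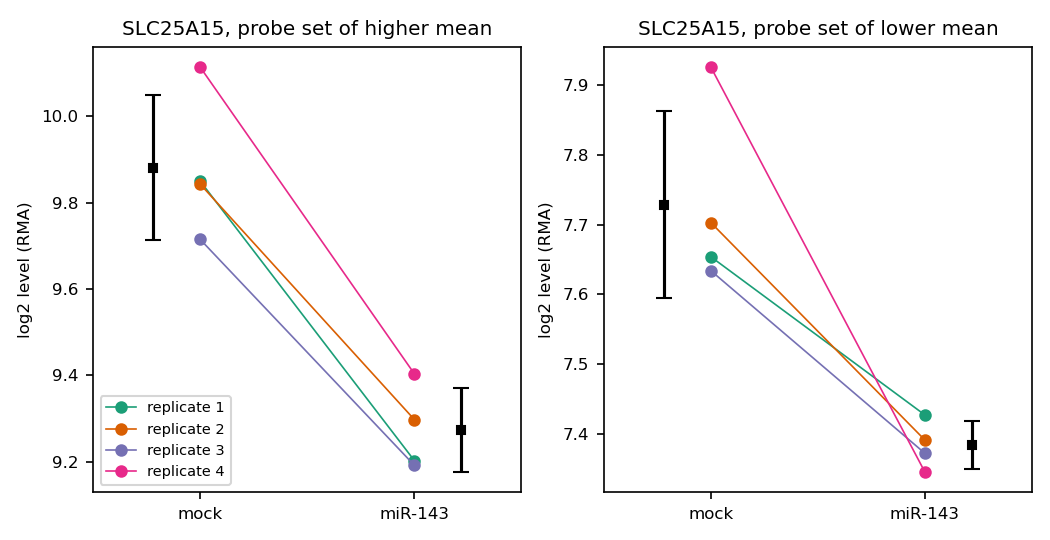
Log2 level (y axis, RMA) of SLC25A15 in the mock and miR-143 arrays (x axis) on its probe sets of higher mean (left) and lower mean (right), with separate scales that do not start at 0. Dots are arrays, lines join arrays of the same replicate number, and squares with bars are group means ± SD (n = 4): every line falls, and all miR-143 arrays lie below all mock arrays on both probe sets.

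The other carriers of ornithine and basic amino acids showed smaller differences. SLC25A2, the close relative of SLC25A15 that also carries ornithine, read 6.95 ± 0.07 with miR-143 and 6.96 ± 0.08 in mock, a log2 fold change of −0.01 with a 95% interval of −0.14 to 0.13. SLC25A29, a carrier of arginine, lysine and ornithine, read 7.93 ± 0.10 against 7.98 ± 0.09 (log2 fold change −0.05, 95% interval −0.21 to 0.11). Neither interval reaches that of SLC25A15, although the difference between the genes was not itself tested. SLC25A2 lay below the median gene level of 7.56, so a fall in its RNA may not have been visible.

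SLC25A44, a carrier of branched-chain amino acids, came next. Its miR-143 arrays read 9.55, 9.49, 9.49 and 9.77 and its mock arrays 9.84, 9.68, 9.66 and 10.09. The groups overlapped because miR-143 replicate 4 lay above mock replicates 2 and 3, while each miR-143 array was below the mock array of its own number. The log2 fold change was −0.24 (95% interval −0.48 to −0.01), with a limma adjusted p of 1.0 without the block and 0.0607 with it, so it was not called. Without mock replicate 4 the log2 fold change was −0.15. Its other probe set gave −0.19.

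Among the carriers of other amino acids, glutathione and carnitine, 4 of 8 changes were negative and 4 positive, with a median log2 fold change of 0.00. SLC25A40, which is tied to the import of glutathione, read 9.49 ± 0.11 with miR-143 and 9.42 ± 0.13 in mock. The rest were SLC25A38 (glycine, for haem synthesis), SLC25A39 (glutathione), SLC25A20 (acylcarnitines), SLC25A45, SLC25A47 and SLC25A48. For the last 3 the place in this group is an assignment and not a firm substrate. None of the rest had an unadjusted p under 0.05 without the block. SLC25A39 had the widest interval of the family, −0.44 to 0.35, as miR-143 replicate 4 read 9.00 and miR-143 replicate 3 read 8.17.

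SLC25A3, SLC25A4 and SLC25A5, carriers that feed oxidative phosphorylation, were highest in replicate 4 of both groups. SLC25A3, which brings phosphate into the matrix for ATP synthesis, read 13.70 ± 0.29 with miR-143 and 13.78 ± 0.29 in mock. SLC25A5, the ADP/ATP carrier typical of dividing cells, read 13.51 ± 0.23 against 13.59 ± 0.24. In this group of adenine nucleotide and phosphate carriers 3 of 4 changes were negative (SLC25A3, SLC25A5 and SLC25A31) and that of SLC25A4 was positive, all between −0.09 and 0.03. Replicate 4 of SLC25A3 exceeded the mean of the other replicates by 0.58 with miR-143 and 0.57 in mock, and SLC25A28 was the only other carrier shifted by over 0.5 in both groups (0.50 and 0.52).

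**Figure D3:**
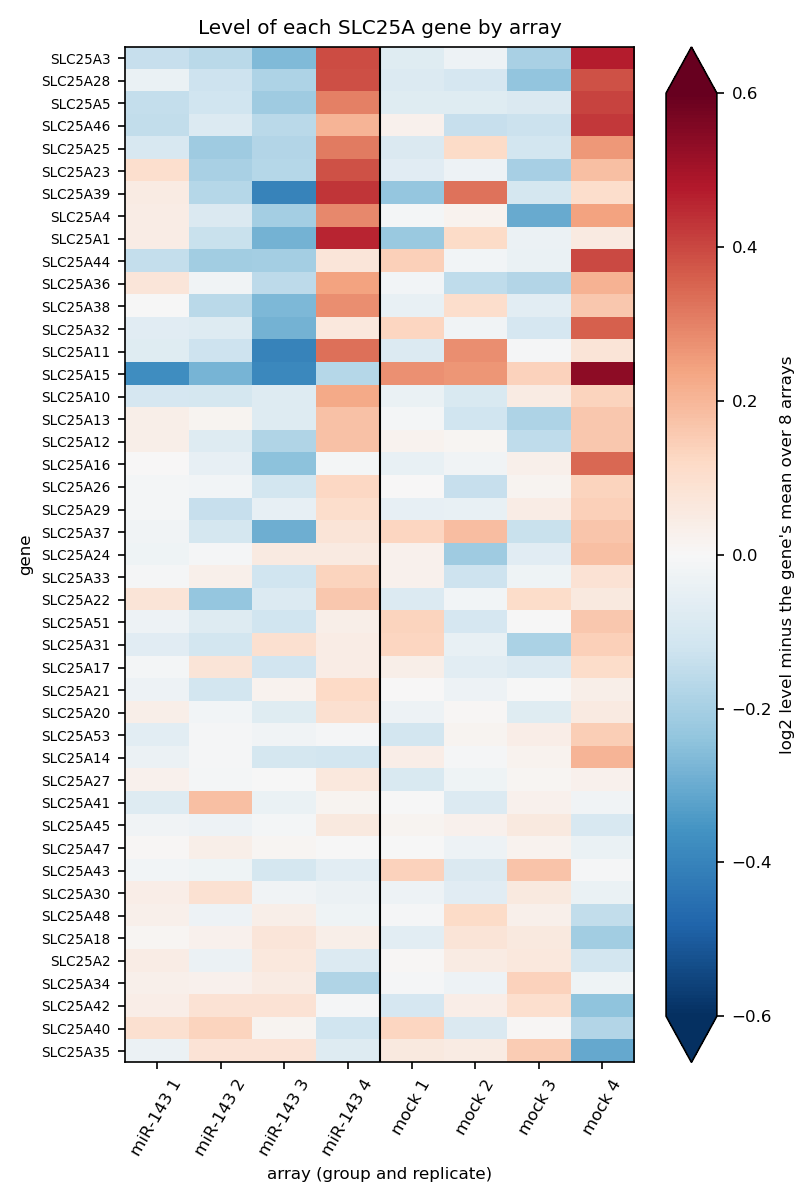
Log2 level of each SLC25A gene (y axis) in each of the 8 arrays (x axis) as the difference from the gene's mean over the arrays (colour, red above and blue below), with genes ordered by how far replicate 4 departs from the rest. Replicate 4 is the highest array of both groups in 23 of 45 genes, and SLC25A15 is low in all miR-143 arrays and high in all mock arrays.

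Replicate 4 was the highest array in both groups for 23 of the 45 carriers (51.1%, against 36.1% of all genes) and the lowest in both for 5 (11.1%, against 23.8%). The 5 were SLC25A2, SLC25A35, SLC25A40, SLC25A42 and SLC25A47. This pattern was not particular to the carriers. VDAC1, VDAC2, VDAC3, GOT1, GOT2, MDH1 and MDH2 were also highest in replicate 4 of both groups, while OTC, CPS1 and PRODH were lowest. Of the 45 carriers, 33 lay above the median gene level, and shares for genes of like level were not taken. With both replicates 4 left out the median log2 fold change of the carriers was −0.03 and that of SLC25A15 was −0.57 (limma adjusted p 0.00591).

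The ATP-Mg/phosphate carriers, which set the adenine nucleotide pool of the matrix, had 1 negative and 3 positive changes. SLC25A24 read 12.10 ± 0.04 with miR-143 and 12.06 ± 0.17 in mock, and SLC25A25 read 8.76 ± 0.24 against 8.85 ± 0.18. SLC25A23 and SLC25A41 were positive at 0.06 and 0.04. No carrier of this group had an unadjusted p under 0.05.

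Of the 3 carriers related to uncoupling proteins, SLC25A14 had the lowest p without the block after SLC25A15 and SLC25A44 among negative changes. Its miR-143 arrays read 9.38, 9.41, 9.31 and 9.31 and its mock arrays 9.46, 9.41, 9.44 and 9.62. The groups touched at replicate 2, where both arrays were at 9.41, and the largest gap was at replicate 4. The log2 fold change was −0.13 (95% interval −0.27 to 0.01; limma adjusted p 1.0 without the block and 0.517 with it), and −0.08 without mock replicate 4. SLC25A30 read 8.18 ± 0.06 against 8.14 ± 0.06, and SLC25A27 was positive at 0.04.

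The carriers of di- and tricarboxylates and oxoacids split evenly. SLC25A1, which exports citrate for fatty acid synthesis, read 8.29 ± 0.32 with miR-143 and 8.24 ± 0.15 in mock. SLC25A11, which exchanges oxoglutarate for malate, read 8.13 ± 0.30 against 8.26 ± 0.16. Its same-numbered differences ran from −0.40 to 0.26, so the sign differed between replicates. SLC25A10 (dicarboxylates) and SLC25A21 (oxodicarboxylates) were within 0.03 of no change.

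SLC25A13, one of the aspartate/glutamate exchangers of the malate-aspartate shuttle, had a positive change on its probe set of highest mean. The miR-143 arrays read 10.63, 10.61, 10.52 and 10.77 and the mock arrays 10.59, 10.48, 10.41 and 10.76, overlapping over most of their range. The log2 fold change was 0.08 (95% interval −0.12 to 0.27), but its other probe sets gave −0.00 and −0.16, so its sign depends on the probe set. The other exchanger, SLC25A12, read 8.67 ± 0.15 against 8.69 ± 0.13.

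The glutamate carriers SLC25A22 and SLC25A18 differed in sign. For SLC25A18 the miR-143 arrays read 6.92, 6.93, 6.98 and 6.94 and the mock arrays 6.84, 6.99, 6.97 and 6.70. The miR-143 values lay inside the mock range, and mock replicate 4 was the lowest of the 8. The mean level of 6.91 lay below the median gene level of 7.56, where a change may not be visible. The log2 fold change was 0.07 (95% interval −0.09 to 0.23), and 0.01 without mock replicate 4. SLC25A22 was at −0.04.

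Among the carriers of nucleotides and cofactors 5 of 8 changes were negative and 3 positive. SLC25A42, a coenzyme A carrier, had the highest change of the family with all arrays and the probe set of highest mean. Its mean level of 7.51 lay below the median gene level of 7.56, where a change may not be visible. Its miR-143 arrays read 7.55, 7.59, 7.59 and 7.50 and its mock arrays 7.41, 7.55, 7.61 and 7.27. Mock replicate 3 lay above every miR-143 array, so the groups overlapped, and mock replicates 1 and 4 were the lowest of the 8. The log2 fold change was 0.10 (95% interval −0.07 to 0.28; limma adjusted p 1.0 without the block and 0.613 with it). It was 0.04 without mock replicate 4, where SLC25A13 stood at 0.14, and 0.01 with the mean over the probe sets of the gene.

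SLC25A32, which carries folate or FAD into the matrix, read 10.93 ± 0.14 with miR-143 and 11.11 ± 0.20 in mock. Its log2 fold change of −0.18 had a 95% interval of −0.42 to 0.06 and an adjusted p of 0.219 with the block. SLC25A33, a pyrimidine nucleotide carrier, read 10.70 ± 0.11 against 10.69 ± 0.09. SLC25A16 was at −0.15 on its probe set of highest mean, but its other probe sets gave 0.02, 0.10 and −0.01, so its sign depends on the probe set. SLC25A51, the NAD carrier, was at −0.10. SLC25A26 (S-adenosylmethionine), SLC25A17 (peroxisomal cofactors) and SLC25A36 (pyrimidine nucleotides) were at −0.00, −0.00 and 0.07.

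The mitoferrins SLC25A37 and SLC25A28 bring iron into the matrix for haem and iron-sulfur clusters. SLC25A37 read 9.60 ± 0.16 with miR-143 and 9.77 ± 0.15 in mock (log2 fold change −0.17, 95% interval −0.39 to 0.05, adjusted p 0.246 with the block). SLC25A28 read 8.88 ± 0.26 against 8.87 ± 0.27. Of the carriers with no firm substrate or another role, SLC25A46, an outer membrane protein of mitochondrial dynamics, read 10.31 ± 0.17 against 10.40 ± 0.26, and SLC25A43 read 7.99 ± 0.04 against 8.09 ± 0.12. SLC25A53 and SLC25A34 were negative and SLC25A35 positive, all within 0.05 of no change.

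The family is covered by 96 probe sets: 18 genes have 1 and 27 have more, up to 10 for SLC25A37. In 15 of the 27 all probe sets gave a change of the same sign. At an unadjusted p under 0.05 in limma without the block, 8 of 96 probe sets were lower, against 1.86% of all probe sets annotated to a single gene, and 0 higher, against 0.713%. They belong to SLC25A15 and SLC25A44 with both of their probe sets, to SLC25A36 with 2, and to SLC25A13 and SLC25A37 with 1 each. Probe sets of 1 gene are not independent, so counts of probe sets are not counts of genes. By gene the count was 2 of 45, against 1.7% of all genes. The SLC25A13 probe set (mean 7.38) and both of SLC25A36 (7.24 and 6.51) lay below the median gene level. The second of SLC25A15 (7.556) lay at its edge (7.557). In 4 of 96 all miR-143 arrays lay below all mock arrays, against 1.25%, and in 0 above, against 0.781%.

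Besides the pair of SLC25A15, these were 1 probe set each of SLC25A37 and SLC25A36, genes described here after their values were seen. On the probe set of SLC25A37 the miR-143 arrays read 8.64, 8.52, 8.59 and 8.47 and the mock arrays 8.81, 8.67, 8.80 and 8.77. The highest miR-143 array stayed just under the lowest mock array, and the log2 fold change of −0.21 had a limma adjusted p over all probe sets of 1.0 without the block and 0.126 with it. The 10 probe sets of SLC25A37 ran from −0.21 to 0.00. SLC25A36 gave 0.07 on its probe set of highest mean and −0.23, −0.02, −0.21 and −0.17 on the others, so here the brightest probe set alone was positive.

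**Figure D4:**
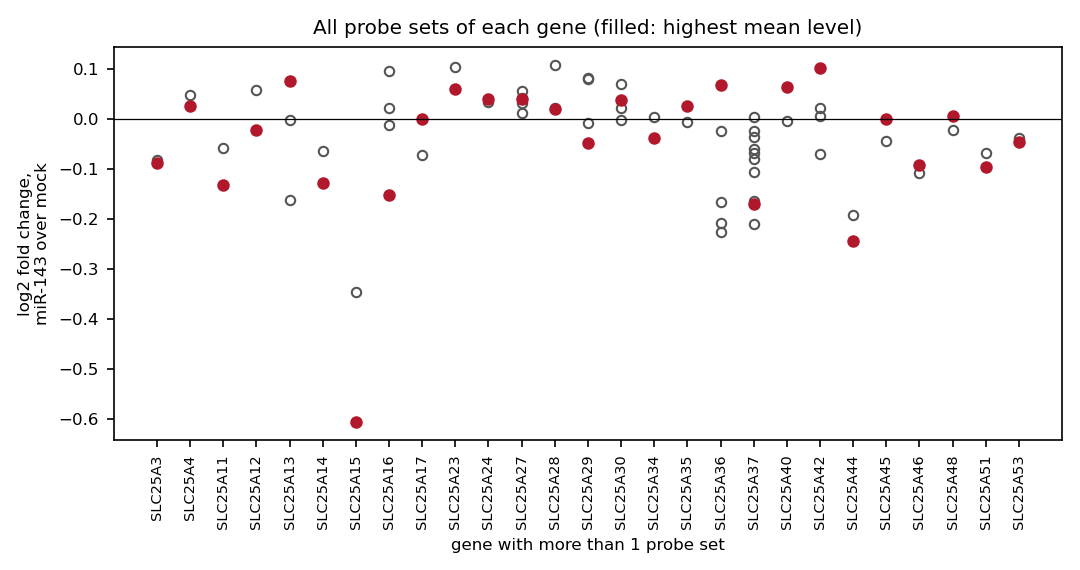
Change in log2 level between mock and miR-143 arrays (y axis, below 0 where miR-143 was lower) for every probe set of the 27 SLC25A genes with more than 1 (x axis), the probe set of highest mean filled. Both SLC25A15 probe sets lie below all others, at −0.61 and −0.35, and SLC25A36 and SLC25A13 have probe sets on both sides of 0.

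Other genes of mitochondrial transport and of ornithine, urea and proline metabolism were counted in the same fit. Of 63 listed genes 59 were measured, 42 changes were negative and 17 positive, and the median log2 fold change was −0.05. None was called lower or higher, without or with the block, and at an unadjusted p under 0.05 without it 1 was lower and 1 higher, against 1.7% and 0.714% of all genes. With the block that limit counted 7 lower (SFXN1, TOMM5, MCU, ODC1, PYCR3, VDAC2 and AZIN1) and 2 higher (SFXN3 and SMS) of 59, against 6.92% and 2.64%, genes named after their values were seen apart from SFXN1, SMS, TOMM5 and ODC1. The lower one without the block was SFXN1, a mitochondrial serine transporter outside the family, at 10.27 ± 0.09 with miR-143 and 10.51 ± 0.12 in mock (log2 fold change −0.23, limma adjusted p 1.0 without the block and 0.0725 with it). The higher one was SMS, spermine synthase, at 11.39 ± 0.07 against 11.25 ± 0.09 (log2 fold change 0.15, limma adjusted p 1.0 without the block and 0.444 with it).

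The genes of ornithine, urea and proline metabolism, only some of which act on ornithine itself, had 7 negative and 9 positive changes among 16 measured. Their median log2 fold change was 0.04. ODC1, ornithine decarboxylase, had the highest mean of them and read 13.66 ± 0.21 with miR-143 and 13.83 ± 0.24 in mock (log2 fold change −0.17, 95% interval −0.47 to 0.14, limma adjusted p 1.0 without the block and 0.274 with it). OTC, CPS1, ARG1 and PRODH, all among the positive changes, had means of 6.83, 6.73, 7.08 and 7.34. These lay below the median gene level of 7.56, so their signs say little.

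The carrier import machinery had 12 negative changes of 14 and a median of −0.05, and TOMM5, a small TOM subunit with the highest mean, read 12.56 ± 0.09 against 12.77 ± 0.21 (limma adjusted p 0.176 with the block). The calcium uniporter genes had 6 of 6 negative (median −0.08, MICU2 at 11.61 ± 0.07 against 11.70 ± 0.11), and the malate-aspartate shuttle enzymes 4 of 4 (median −0.10, MDH1 at 13.08 ± 0.20 against 13.17 ± 0.24). The outer membrane pores had 3 of 3 (median −0.05, VDAC3 at 13.14 ± 0.06 against 13.19 ± 0.15). The genes of the same fold under other symbols, not all of them carriers, had 4 of 5 (median −0.03, MTCH1 at 11.62 ± 0.27 against 11.65 ± 0.15). The list of other inner membrane carriers, which also holds the enzymes CPT1A and CPT2, had 6 of 11 (median −0.01, GHITM at 12.83 ± 0.18 against 12.91 ± 0.14). These shares stand beside the 55.6% of all genes with a negative change, and none of these lists held a called gene. The 55.6% covers genes of every level, while the genes named in this paragraph lay above the median gene level. With dim genes left out the carriers' own median went from −0.01 to −0.04. No share was taken for genes of like level, so whether these shares are particular to the lists was not tested.

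**Figure D5:**
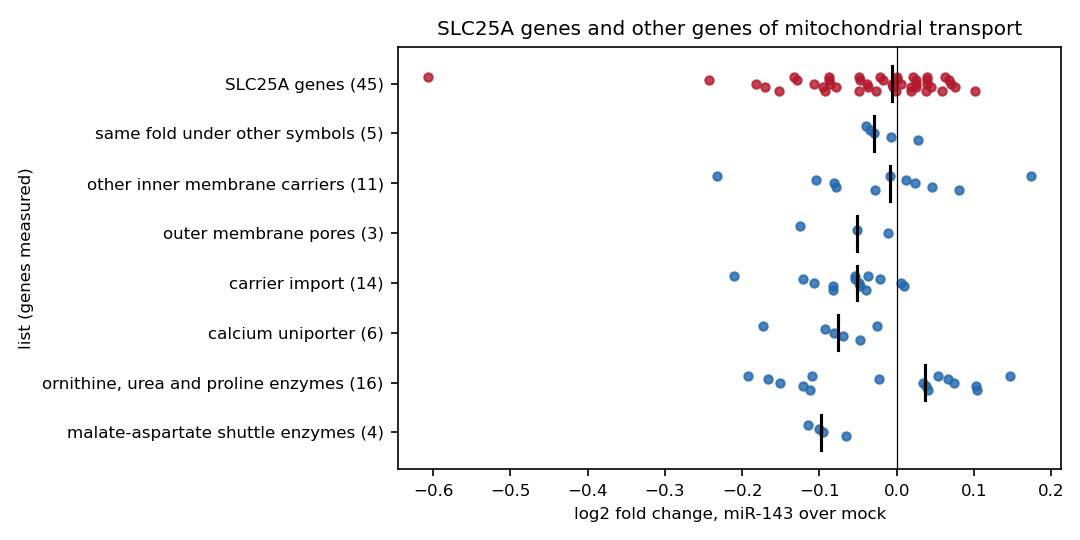
Change in log2 level between mock and miR-143 arrays (x axis, below 0 where miR-143 was lower) for the 45 SLC25A genes and for 7 lists of other mitochondrial transport and ornithine genes (y axis, number measured), where points are genes, their height within a list is arbitrary, and black bars are medians. All list medians lie between −0.10 and 0.04, and SLC25A15 is the lowest point at −0.61.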

How the data were processed

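Total RNA of 8 DLD-1 cultures was hybridised to Affymetrix HG-U133 Plus 2.0 arrays. The authors deposited log2 values per probe set, made with RMA in the affy package according to the submitters' processing notes (versions are not given in the sources used here), and they were used as deposited. RMA gives no detection call. Of 54675 probe sets, 41091 carried 1 current symbol, 1801 several, and 62 were controls. The probe set of highest mean represented each of 19752 genes. Groups came from the sample titles.

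A linear model per gene (limma 3.58.1 in R 4.3.3, moderated by eBayes, two-sided) compared the groups, with Benjamini-Hochberg adjustment over all genes and a threshold of 0.05. Python 3.11.15 with pandas 2.3.3, numpy 2.4.6 and matplotlib 3.10.9 made tables and plots. The code of the fit was run on simulated arrays with independent noise, without and with a replicate shift of equal spread in every replicate. In the real arrays replicate 4 stood apart, so that run cannot show whether the block suits them. The study's methods name no block. Around the group means, arrays that share a number correlated across genes at 0.11, 0.17, 0.58 and 0.81 for replicates 1 to 4, above the limit of 0.1 set for using the numbers as pairs, although the first lies close to it and replicates 1 and 2 of miR-143 correlated better with another mock number (0.25 and 0.54). The pairing therefore comes from the data, not from the labels, and the limit of 0.1 cannot show it for replicates 1 to 3. Their differently numbered arrays correlated at 0.17 to 0.54, a range similar to that of the same-numbered ones. Settings tried were the block, leaving out arrays, both replicates 4 left out, cyclic loess, array weights, a trended prior, dim genes left out, the mean over probe sets and all probe sets.

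Arrays were named for each SLC25A gene not overlapping between groups or called in either fit, for SLC25A15, and for the 3 lowest p on each side; for other substrate groups the 2 genes of highest mean were named, and in the further lists genes with an unadjusted p under 0.05 and the gene of highest mean. Genes and lists were chosen with earlier results of these data known. Protein and promoter features were not described.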

Additional observations from a re-analysis of the deposited data

Results flagged for a closer look

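Within groups of 4 arrays, a single array lay far from the rest in 4 cases among the SLC25A genes, by the gap to its nearest neighbour as a share of the group's range. Chance gives about 1 such case in 20 groups, and both groups of all 45 genes were examined. Mock replicate 4 of SLC25A5 read 13.955 (0.978 of the range). The miR-143 replicate 4 of SLC25A10 read 7.821 (0.921). The miR-143 replicate 4 of SLC25A34 read 7.014 (0.913), and its mock replicate 3 read 7.335 (0.859). In 3 of the 4 the array was a replicate 4.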

How the results depend on the processing

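The count of genes called lower was 0 without the block and 123 with it, 57, 68, 33 and 42 with the block and without replicates 1, 2, 3 and 4, 30 with both replicates 4 left out, 31 after cyclic loess, 36 with array weights and 1 over all probe sets. The count called higher was 0 without the block, 33 with it, 16, 11, 9 and 16 with the block and without replicates 1 to 4, 13, 22 and 20 under the next 3 settings. In each of these settings but all probe sets and the fit without the block, 1 SLC25A gene was called lower, SLC25A15. Its log2 fold change and limma adjusted p were −0.61 and 0.000427 with the block, −0.59 and 0.00452, −0.63 and 0.00641, −0.63 and 0.00218, and −0.57 and 0.00499 with the block and without replicates 1 to 4, −0.57 and 0.00591 with both replicates 4 left out, −0.57 and 0.00138 after cyclic loess and −0.58 and 0.00141 with array weights. The exact permutation test of the same −0.61 gave p = 0.0286, which is unadjusted and takes no account of replicate numbers. It is the smallest p that 70 groupings allow, and any gene without overlap reaches it, so it adds nothing to the absence of overlap. SLC25A15 was chosen for its extreme change on these same arrays. The gene was not called without the block when any single array was left out (−0.66 to −0.53, adjusted p 0.104 to 0.734). Nor was it called with a trended prior (0.22), dim genes left out (0.106) or all probe sets (0.182). With the mean over probe sets it was −0.48 (adjusted p 0.219). The other SLC25A15 probe set was called in 1 setting, the block (−0.35, adjusted p 0.0379). The block changed no other call of an SLC25A gene or of a listed gene. SLC25A13 turned to −0.03 with the mean over probe sets, since its probe sets differ in sign. The cause of the differences between settings was not tested. The number of arrays and the spread between replicates limit what can be seen: the median SE of the SLC25A genes was 0.086 without the block and 0.054 with it.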
